A study of Mus musculus with 9 samples.

Results

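The RNA polymerase I machinery was followed in mouse embryonic fibroblasts (MEFs), primary connective tissue cells grown from embryos, through 10 genes of the 15184 in the deposited expression table. The genes were taken by name and code for 4 polymerase subunits (*Polr1a*, *Polr1b*, *Polr1c* and *Polr1e*), the initiation factor *Rrn3*, the ribosomal DNA binding factor *Ubtf*, 3 TATA-binding protein associated factors of the promoter complex SL1 (*Taf1b*, *Taf1c* and *Taf1d*), and the termination factor *Ttf1*. All 10 were listed and all 10 passed the filter on low values that the table carries. PolyA+ RNA had been sequenced from 9 libraries, 3 of cells labelled Empty vector and 3 from each of the lines SAM1 and SAM2, whose genotype is given as Hnrnpk_SAM. Wild-type MEFs had received lentiMPHv2 and lentiSAMv2, a CRISPR activation system in which a catalytically dead Cas9 and a recruited activator raise transcription at a guide's target, here the RNA-binding protein gene *Hnrnpk*. The cells were then selected with blasticidin and hygromycin, and the control carried lentiSAMv2 with a guide that has no target. The labels do not tie either guide to a line or say whether the 3 libraries of a group are separate cultures, so p-values measure only the spread between libraries. Where both lines form one group, that spread also holds the difference between the lines, and their libraries are not replicates of one line. The study's methods print one spacer for both the guide without a target and the second *Hnrnpk* guide.

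RNA polymerase I transcribes one kind of gene, the tandem ribosomal DNA repeats of the nucleolus, whose long precursor transcript is cut into most of the ribosomal RNAs. UBF, the protein of *Ubtf*, covers the active repeats. SL1, made of the TATA-binding protein and its associated factors, binds the core promoter and receives the polymerase that carries TIF-IA, the protein of *Rrn3*. TTF-I ends transcription at the terminators and also binds ahead of the promoter. Dividing fibroblasts make ribosomes at a high rate, and this step is one of the points at which growth signals act on that rate. The mRNAs of the machinery were measured here and not the ribosomal RNA itself, because the libraries were made from the polyA+ fraction.

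Depth was even, with 41759636 to 49026626 reads per library on the listed genes (median 46350100). Between libraries of one group, the chi-square of the counts per gene was 11.544 to 13.792 in empty vector and 1.545 to 2.332 in SAM2, and in SAM1 it was 1.455 between replicates 1 and 3 but 7.991 and 9.489 between these and replicate 2, so that calls that change without SAM1 replicate 2 are given beside the genes. *Hnrnpk* itself had normalized counts of 25058 to 26164 in empty vector, 23619 to 24102 in SAM1 and 26221 to 26859 in SAM2 libraries, with log2 fold changes of -0.03 over both lines (adjusted p = 0.642, limma with Benjamini-Hochberg adjustment), -0.11 in SAM1 (adjusted p = 0.00252) and 0.04 in SAM2 (adjusted p = 0.159). Each SAM1 library was below and each SAM2 library above the 3 empty vector libraries, so the mRNA counts did not move one way with the label, and directions are given relative to the labels' names SAM1 and SAM2. The study's other assays of *Hnrnpk* were not used here. All 11 fibroblast markers were listed, with summed normalized counts of 1036178 to 1127987 in empty vector, 877974 to 934729 in SAM1 and 1159697 to 1198282 in SAM2. *Fn1*, *Col1a1* and *Col1a2* had the largest counts in this sum, and single markers went both ways. Over both lines 1 of the 11 was called higher (*Pdgfrb*, log2 fold change 0.74). Called lower were 3, *Dcn* (-2.17), *Pdgfra* (-0.705) and *Thy1* (-0.48), where 26.8% of all genes were higher and 27.0% lower. Sums over endothelial markers (4 of 4 listed) were 301 to 357 in empty vector, 4613 to 4988 in SAM1 and 638 to 689 in SAM2. In the same order, *Kdr* averaged 210.7, 4693 and 535.7, and *Cdh5* 77.58, 64.67 and 51.21. *Tek* averaged 35.56, 29.05 and 67.1, and *Pecam1* 12.9, 29.45 and 11.99, so the SAM1 sum was mostly *Kdr*. Sums over leukocyte markers (3 of 5 listed, *Ptprc* and *Adgre1* not) were 607 to 728, 944 to 977 and 695 to 739. Epithelial markers (2 of 5, *Epcam*, *Krt18* and *Krt5* not) summed to 42 to 50, 110 to 113 and 43 to 52, muscle markers (2 of 4, *Myod1* and *Myog* not) to 23710 to 25422, 63056 to 66627 and 55509 to 56036, and neural markers (2 of 4, *Sox2* and *Pax6* not) to 2126 to 2287, 8858 to 9048 and 8211 to 8414. The muscle sum was nearly all *Acta2*, with means of 24380, 64320 and 55580, beside 67.69, 101.6 and 232.0 for *Des*. The summed counts of 15 G2/M genes were 28679 to 29248 in empty vector, 66208 to 67496 in SAM1 and 65153 to 66359 in SAM2. *Top2a* and *Tpx2* had the largest counts in this sum, and *Nusap1*, *Plk1* and *Cenpf* the smallest pooled adjusted p-values. Mitochondrial transcripts took 0.834% to 0.9719%, 1.9797% to 2.1561% and 1.2685% to 1.3602% of the normalized counts. The part of these shifts in the results below was not tested, and in bulk RNA fewer cells of a type and less RNA per cell cannot be told apart.

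When the 6 SAM libraries formed one group, 4 of the genes passed the test, *Polr1a* and *Polr1b* above and *Taf1b* and *Taf1d* below empty vector, and the bases ahead of these 4 starts are shown so that the regions behind the higher and the lower pair can be read side by side. Each is the 250 bases before the start of the canonical transcript in GENCODE vM39, on the plus strand of GRCm39, 5′ to 3′. They lie at chr6:71885771-71886020 (*Polr1a*), chr2:128942653-128942902 (*Polr1b*), chr12:24548108-24548357 (*Taf1b*) and chr9:15217260-15217509 (*Taf1d*). Capitals mark every match to the motifs searched, on either strand.
Polr1a: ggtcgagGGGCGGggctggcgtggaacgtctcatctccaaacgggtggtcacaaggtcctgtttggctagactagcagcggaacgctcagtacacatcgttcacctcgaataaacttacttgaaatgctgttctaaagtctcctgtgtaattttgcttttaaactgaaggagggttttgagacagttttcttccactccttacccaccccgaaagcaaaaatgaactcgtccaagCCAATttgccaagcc
Polr1b: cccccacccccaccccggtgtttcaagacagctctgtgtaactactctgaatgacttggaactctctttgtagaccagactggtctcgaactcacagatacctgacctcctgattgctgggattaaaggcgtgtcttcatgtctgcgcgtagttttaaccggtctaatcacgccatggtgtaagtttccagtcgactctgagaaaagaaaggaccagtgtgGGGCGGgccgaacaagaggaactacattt
Taf1b: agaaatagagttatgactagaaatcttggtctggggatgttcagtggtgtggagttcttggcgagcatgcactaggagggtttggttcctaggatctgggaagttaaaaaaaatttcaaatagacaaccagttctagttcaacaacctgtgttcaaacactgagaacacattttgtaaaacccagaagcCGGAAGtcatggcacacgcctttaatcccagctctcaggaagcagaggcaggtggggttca
Taf1d: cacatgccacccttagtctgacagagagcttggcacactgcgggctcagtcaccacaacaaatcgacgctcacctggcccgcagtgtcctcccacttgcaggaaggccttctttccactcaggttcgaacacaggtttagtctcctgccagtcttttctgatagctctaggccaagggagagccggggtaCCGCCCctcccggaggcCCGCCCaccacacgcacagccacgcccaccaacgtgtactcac

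The capitals in *Polr1a* are a GC box (GGGCGG) at the far end and a CCAAT box near the start, and *Polr1b* holds a GC box alone. *Taf1b* holds an ETS core (CGGAAG) and no GC box, and *Taf1d* holds a pair of GC boxes read on the other strand. The GC box stood in 6 of the 10 promoters and in 46.7% of the 14790 promoters of listed genes, the CCAAT box in 3 of 10 (*Polr1a*, *Taf1c* and *Ttf1*) and 35.6%, and the ETS core in 2 of 10 (*Taf1b* and *Ttf1*) and 19.1%. The E-box CACGTG, a sequence that MYC family proteins can bind, was in 1 of 10 and in 7.5% of all. The gene with it, *Rrn3*, had 2 copies, starting 206 and 39 bases before the transcript start. The NRF1 core GCGCATGC (3.1% of promoters) and TATAAA (7.8%) were in none of the 10. The share of G and C was 48.8% for *Polr1a*, 50.4% for *Polr1b*, 44.8% for *Taf1b* and 60.4% for *Taf1d*, where the median over all promoters was 56.4%. No motif was shared by the higher pair and absent from both promoters of the lower pair.

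Over both lines, the 2 catalytic subunit genes rose, 2 of the 3 SL1 factor genes fell, and the remaining 6 genes did not pass the test. Of the 10 genes, 2 were higher (26.8% of all genes tested were) and 2 were lower (27.0% of all genes). Their log2 fold changes had a median of 0.049, and those of all 15184 genes a median of 0.009. The shares of the machinery called in each direction were therefore near those of the transcriptome, and the genes are described one by one. The 6 SAM libraries and the 3 controls had ranges that did not overlap in 4 of 10 genes, and in 53.1% of all genes.

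**Figure D1:**
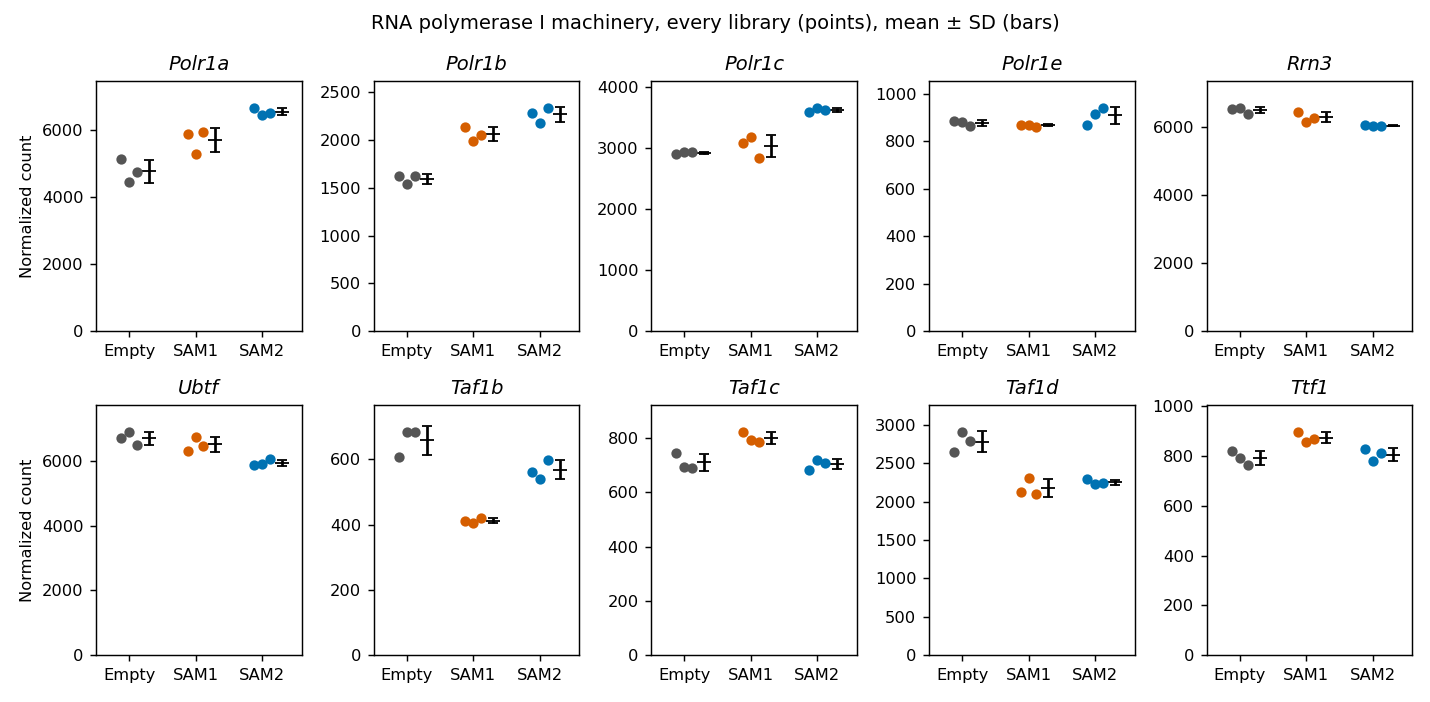
Normalized counts (reads per gene divided by the size factor of the library) of the 10 RNA polymerase I genes on axes that start at 0, with 1 point per library and the mean ± SD of the 3 libraries of each group beside them. The 6 SAM points of *Polr1a* and *Polr1b* lie above the empty vector points and those of *Taf1b* and *Taf1d* lie below, while in *Polr1c*, *Ubtf* and *Rrn3* only the SAM2 points are set apart from empty vector.

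*Polr1a* and *Polr1b* code for the largest subunits, RPA190 and RPA135, which together form the active site. *Polr1a* lies at chr6:71886021-71961919 on the plus strand. Empty vector libraries 1, 2 and 3 had normalized counts of 5130, 4437 and 4736, against 5890, 5276 and 5938 for SAM1 and 6662, 6462 and 6512 for SAM2. Each SAM library exceeded each empty vector library, and each SAM2 library exceeded each SAM1 library. The pooled log2 fold change was 0.36 (SE 0.0784, adjusted p = 0.00367 from limma with Benjamini-Hochberg adjustment, which gave all adjusted p-values of this report), a rise of 28.2%. SAM1 was 19.6% above empty vector (log2 fold change 0.26, SE 0.0528, adjusted p = 0.000609) and SAM2 was 37.5% above it (0.46, adjusted p = 4.05e-06). The lines differed from each other by 0.20 on the log2 scale (adjusted p = 0.00519).

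*Polr1b*, at chr2:128942903-128970214 on the plus strand, had the largest rise of the 10 genes. It counted 1622, 1534 and 1627 in empty vector, 2134, 1990 and 2051 in SAM1, and 2285, 2179 and 2334 in SAM2. The SAM libraries were all higher, and the highest empty vector library was well under the lowest SAM library. The log2 fold change was 0.44 over both lines (SE 0.057, adjusted p = 0.000157), 0.37 in SAM1 (SE 0.041, adjusted p = 2.59e-06) and 0.51 in SAM2 (adjusted p = 1.31e-07). SAM2 exceeded SAM1 by 0.14 (adjusted p = 0.0105), but this difference missed the threshold with quantile normalization (0.09, adjusted p = 0.0791), with upper-quartile scaling (0.09, adjusted p = 0.0862) and without SAM2 replicate 3 (0.12, adjusted p = 0.0537). Per kilobase of transcript, the ratio of *Polr1b* to *Polr1a* was 0.542 ± 0.0266 in empty vector, 0.585 ± 0.0257 in SAM1 and 0.56 ± 0.0177 in SAM2 (SD, n = 3), so that the spreads of the groups overlapped.

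*Polr1c* codes for RPAC1, a subunit that RNA polymerase I shares with RNA polymerase III. It is at chr17:46554843-46559126 on the minus strand. Counts of 2901, 2929 and 2932 in empty vector stood beside 3080, 3181 and 2833 in SAM1 and 3577, 3653 and 3620 in SAM2. The SAM1 libraries lay on both sides of empty vector, and the SAM2 libraries were above all others. SAM2 rose by 23.8% (log2 fold change 0.31, SE 0.0393, adjusted p = 1.09e-05) and SAM1 differed from empty vector by 0.05 (95% interval -0.033 to 0.137, adjusted p = 0.248). The difference between the lines was itself past the threshold (0.26, adjusted p = 9.35e-05). The pooled value of 0.18 missed it (adjusted p = 0.0943), and passed with upper-quartile scaling (0.21, adjusted p = 0.0301), with quantile normalization (0.22, adjusted p = 0.0295) and without SAM1 replicate 3 (0.23, adjusted p = 0.0202). These same settings also brought SAM1 past the threshold (0.11 with adjusted p = 0.0288, 0.11 with adjusted p = 0.0249 and 0.10 with adjusted p = 0.0196).

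*Polr1e*, at chr4:45018583-45038513 on the plus strand, codes for PAF53, a subunit found in this polymerase alone that, with PAF49, resembles general factors of RNA polymerase II. It had the smallest pooled change of the 10 genes, with counts of 863.3 to 884.9 in empty vector, 861.3 to 869.4 in SAM1 and 869.3 to 939.9 in SAM2, and the 3 groups overlapped. The log2 fold changes were 0.02 over both lines (95% interval -0.086 to 0.121, adjusted p = 0.766), -0.02 in SAM1 (adjusted p = 0.748) and 0.05 in SAM2 (adjusted p = 0.299), and quantile normalization turned the first and the last to -0.04 and -0.02.

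*Rrn3* codes for TIF-IA, which binds the polymerase and makes it able to start, and lies at chr16:13598376-13635974 on the plus strand. Counts were 6524, 6552 and 6373 in empty vector, 6419, 6130 and 6267 in SAM1 and 6042, 6023 and 6019 in SAM2. The SAM2 libraries were the lowest and lay within a narrow range, and SAM1 overlapped empty vector. *Rrn3* fell by 7.01% in SAM2 (log2 fold change -0.11, SE 0.0276, adjusted p = 0.00415), a call that ended with quantile normalization (-0.04, adjusted p = 0.155). In SAM1 the value was -0.05 (adjusted p = 0.134) and turned to 0.07 (adjusted p = 0.0296) with quantile normalization, and over both lines -0.08 (adjusted p = 0.0849) turned to 0.01 with the same setting and passed the threshold with DESeq2 on recovered reads (-0.08, adjusted p = 0.0411). Relative to *Polr1a* per kilobase, *Rrn3* stood at 3.5 ± 0.266 in empty vector, 2.83 ± 0.139 in SAM1 and 2.36 ± 0.0331 in SAM2 (SD, n = 3), a ratio within each library that one scaling factor per library leaves as it is.

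*Ubtf* lies at chr11:102195386-102210568 on the minus strand. Its 3 empty vector libraries had 6699, 6910 and 6482, SAM1 had 6309, 6753 and 6475, and SAM2 had 5884, 5899 and 6059. SAM2 was below the other 6 libraries, which were mixed among themselves. In SAM2 *Ubtf* fell by 11.2% (log2 fold change -0.17, SE 0.0337, adjusted p = 0.000503), and it was lower in SAM2 than in SAM1 (-0.13, adjusted p = 0.00467). SAM1 itself was at -0.04 (95% interval -0.113 to 0.033, adjusted p = 0.294), which turned to 0.08 and 0.02 with quantile normalization and upper-quartile scaling. The pooled value of -0.11 (adjusted p = 0.11) missed the threshold, and passed it without SAM1 replicate 2 (-0.13, adjusted p = 0.036).

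The 3 associated factors of SL1 did not move together. *Taf1b*, at chr12:24548358-24608556 on the plus strand, codes for the factor that resembles TFIIB of RNA polymerase II and contacts the polymerase. It had 607.7, 682.8 and 685.7 in empty vector, 411.0, 404.9 and 420.9 in SAM1 and 562.7, 541.5 and 599.4 in SAM2. The 3 groups did not overlap, with SAM1 lowest and SAM2 between. *Taf1b* fell by 37.3% in SAM1 (log2 fold change -0.67, SE 0.0607, adjusted p = 3.08e-07), the largest change of any of the 10 genes in either line, and fell by 13.7% in SAM2 (-0.21, adjusted p = 0.00681). The lines differed by 0.46 (SE 0.0607, adjusted p = 2.51e-05). The pooled log2 fold change was -0.44 (SE 0.143, adjusted p = 0.0256), and it missed the threshold without Empty replicate 2 (-0.42, adjusted p = 0.0864) or without Empty replicate 3 (-0.41, adjusted p = 0.0887).

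*Taf1c* codes for the largest associated factor of SL1 and lies at chr8:120324585-120331986 on the minus strand. Its counts were 746.8, 695.4 and 691.6 in empty vector, 824.8, 793.9 and 785.2 in SAM1 and 684.4, 720.5 and 709.8 in SAM2. SAM1 was above the other 6 libraries, and SAM2 overlapped empty vector. The gene rose by 12.7% in SAM1 (log2 fold change 0.17, SE 0.0479, adjusted p = 0.00541) and was lower in SAM2 than in SAM1 (-0.18, adjusted p = 0.00477). SAM2 against empty vector gave -0.01 (95% interval -0.116 to 0.091, adjusted p = 0.83), which turned to 0.02 without Empty replicate 1 and to 0.01 without SAM2 replicate 1. The pooled value was 0.08 (adjusted p = 0.365).

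*Taf1d*, at chr9:15217502-15228293 on the plus strand, codes for the smallest of these factors. Counts were 2652, 2915 and 2786 in empty vector, 2127, 2307 and 2096 in SAM1 and 2290, 2227 and 2246 in SAM2. Every SAM library was below every empty vector library, and the lines overlapped each other. *Taf1d* fell by 20.4% over both lines (log2 fold change -0.33, SE 0.0469, adjusted p = 0.000277), by 0.36 on the log2 scale in SAM1 (adjusted p = 7.31e-06) and by 0.30 in SAM2 (adjusted p = 3.62e-05). The difference between the lines was 0.05 (95% interval -0.044 to 0.147, adjusted p = 0.326). Exons of *Taf1d* share bases with 8 small nucleolar RNA and 2 microRNA genes on the same strand, so these counts may hold or lack reads that either gene could give.

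The balance among the SL1 genes differed between the groups. Per kilobase, *Taf1b* stood at 1.36 ± 0.147 times *Taf1c* in empty vector, 0.755 ± 0.0284 in SAM1 and 1.18 ± 0.0711 in SAM2 (SD, n = 3). *Taf1d* stood at 12.1 ± 1.03, 8.4 ± 0.521 and 9.89 ± 0.404 times *Taf1c*, values whose size depends on the canonical transcript lengths used. Both ratios were lowest in SAM1, whose libraries did not overlap those of empty vector or SAM2 in either ratio.

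*Ttf1*, at chr2:28950252-28977668 on the plus strand, had 762.9 to 819.4 in empty vector, 858.1 to 898.9 in SAM1 and 778.9 to 827.8 in SAM2. SAM1 lay above all other libraries, and SAM2 overlapped empty vector. The rise in SAM1 was 10.4% (log2 fold change 0.14, SE 0.0458, adjusted p = 0.0124) and missed the threshold without Empty replicate 3 (0.12, adjusted p = 0.0532) or without SAM1 replicate 1 (0.12, adjusted p = 0.0538). SAM2 was at 0.03 (95% interval -0.074 to 0.124, adjusted p = 0.644), turning to -0.002 without Empty replicate 3, and both lines together were at 0.08 (adjusted p = 0.235). The difference between the lines of -0.12 (adjusted p = 0.0396) was past the threshold, and missed it with DESeq2 on recovered reads (-0.12, adjusted p = 0.0797) and without SAM1 replicate 1 (-0.10, adjusted p = 0.133), SAM1 replicate 3 (-0.12, adjusted p = 0.0682), SAM2 replicate 2 (-0.09, adjusted p = 0.147) or SAM2 replicate 3 (-0.12, adjusted p = 0.0757).

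**Figure D2:**
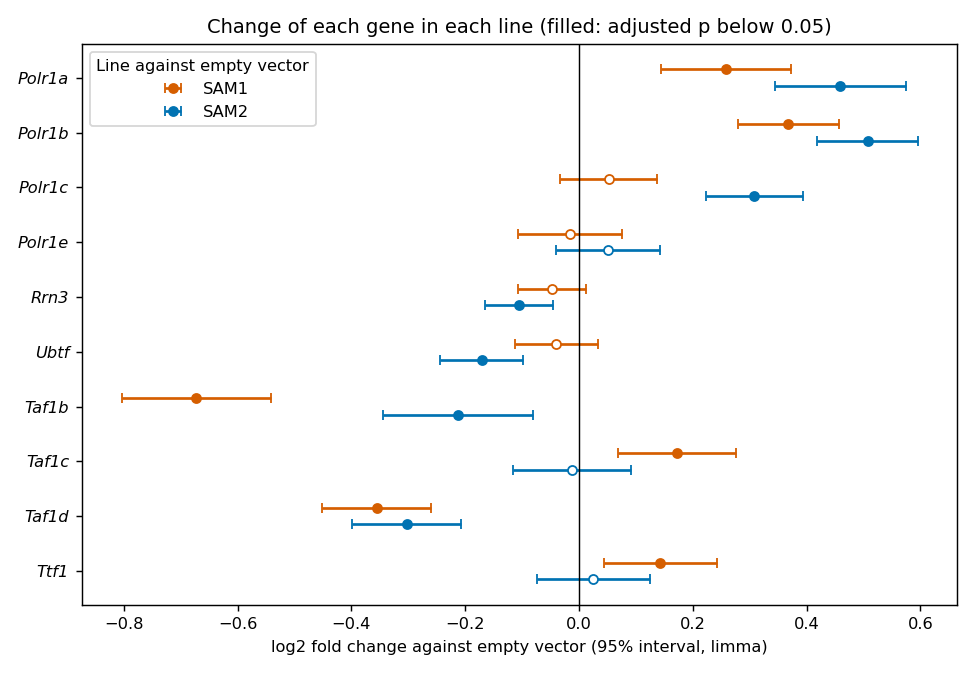
The log2 fold change of each gene against empty vector with its 95% interval from limma (horizontal axis), in SAM1 (orange) and SAM2 (blue), where filled points have an adjusted p below 0.05. *Taf1b* reaches -0.67 in SAM1 and -0.21 in SAM2, *Polr1c* is at 0.05 and 0.31, and *Polr1a*, *Polr1b* and *Taf1d* are filled in both lines, which were compared with the same 3 empty vector libraries.

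Taken line by line against the same 3 empty vector libraries, SAM1 had 4 of the 10 genes higher (37.3% of all genes) and 2 lower (36.9% of all genes). With upper-quartile scaling SAM1 had 5 higher and 2 lower (6273 and 4942 of all genes), and with quantile normalization 6 and 2 (5213 and 6005 of all genes, from 5667 and 5608). SAM2 had 3 higher (35.2% of all genes) and 4 lower (35.3% of all genes). The median of the 10 was 0.018 in SAM1 and 0.006 in SAM2, with 0.009 and -0.001 over all genes. Compared directly, SAM2 was above SAM1 in 4 of the 10 genes (31.1% of all genes) and below it in 3 (29.2% of all genes), with a median of 0.059 against -0.007. This balance turned to 3 above and 4 below with upper-quartile scaling (3841 and 5327 of all genes, from 4722 and 4440) and with quantile normalization (4618 and 4377 of all genes). The genes above were *Polr1a*, *Polr1b*, *Polr1c* and *Taf1b*, and those below were *Ubtf*, *Taf1c* and *Ttf1*. The 3 that did not pass this test were *Polr1e*, *Rrn3* and *Taf1d*, and *Rrn3* passed it with upper-quartile scaling (-0.11, adjusted p = 0.00288), with quantile normalization (-0.11, adjusted p = 0.0024) and without SAM1 replicate 2 (-0.07, adjusted p = 0.0412).

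Levels of different genes can be set side by side only per length, here as normalized counts per kilobase of the canonical transcript. Reads were counted per gene and not per transcript, so the order depends on that choice of length. *Taf1d*, for which 1055 bases were used, has 51 annotated transcripts, and its exons share bases with small RNA genes. In empty vector the order ran from *Taf1d* (2639 ± 124.8, SD, n = 3), *Polr1c* (1996 ± 11.57), *Rrn3* (1798 ± 26.79) and *Ubtf* (1427 ± 45.52) to *Polr1a* (516.0 ± 37.64). *Taf1b* (296.2 ± 19.89), *Polr1e* (293.4 ± 3.804) and *Polr1b* (279.2 ± 9.243) followed with means within 1 SD of that of *Taf1b*. *Taf1c* (218.1 ± 9.458) and *Ttf1* (190.4 ± 6.813) were lowest. Among the polymerase subunits, *Polr1c* was the highest and *Polr1b* the lowest. In SAM1 *Polr1c* (2072 ± 122.3) and *Taf1d* (2063 ± 108.0) were level within their spreads, and *Taf1b* (185.4 ± 3.638) was below *Ttf1* (210.3 ± 5.139) at the end of the order. In SAM2 *Polr1c* (2472 ± 26.05) stood above *Taf1d* (2137 ± 30.27), and *Taf1b* (255.3 ± 13.17) lay between *Polr1e* (304.1 ± 11.99) and *Taf1c* (216.2 ± 5.682). The counts behind these levels were 410 to 7018 reads per gene and library, and the coefficient of variation within a group was 0.201% to 7.3%.

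The other 12 subunits of the polymerase and of SL1 were counted in the same way. Over both lines, 1 of the 12 was higher (26.8% of all genes) and 6 were lower (27.0% of all genes), with a median of -0.212, where the 10 genes above had 0.049 and all genes 0.009. SAM1 had 2 higher and 6 lower (37.3% and 36.9% of all genes, median -0.172), and SAM2 had 1 higher and 8 lower (35.2% and 35.3% of all genes, median -0.259). No test compared these shares with those of all genes. Among the subunits found only in RNA polymerase I, *Polr1f* (RPA43, which binds TIF-IA) fell from 1769 to 1861 in empty vector to 1228 to 1285 in SAM1 and 1524 to 1555 in SAM2 (pooled log2 fold change -0.37, SE 0.0893, adjusted p = 0.00605). The lines differed in *Polr1f* by 0.29 (adjusted p = 1.85e-05), with SAM1 lower. *Polr1g* (PAF49, the partner of PAF53) was at -0.17 (adjusted p = 0.113) and *Polr1h* (RPA12, used in cleavage of stalled transcripts) at 0.13 (adjusted p = 0.126). Without SAM1 replicate 2 *Polr1g* passed the threshold (-0.22, adjusted p = 0.0201), and without SAM2 replicate 3 *Polr1h* did (0.16, adjusted p = 0.0498). *Polr1d* (RPAC2, the partner of RPAC1) fell from 6052 to 6996 to 5116 to 5913 in SAM1 and 5098 to 5252 in SAM2 (-0.30, SE 0.0608, adjusted p = 0.00253).

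Of the 5 subunits that RNA polymerases I, II and III have in common, *Polr2h* fell most, from 1280 to 1508 in empty vector to 973.6 to 1105 in SAM1 and 893.5 to 977.1 in SAM2 (pooled log2 fold change -0.51, SE 0.076, adjusted p = 0.000349). *Polr2e* also fell (-0.36, SE 0.0463, adjusted p = 0.000134). *Polr2f* was the 1 gene of the 12 that rose (0.20, SE 0.0626, adjusted p = 0.0212), and missed the threshold without Empty replicate 1 (0.15, adjusted p = 0.105) or Empty replicate 3 (0.20, adjusted p = 0.0673). *Polr2k* was at -0.03 (adjusted p = 0.827), a sign that turned with upper-quartile scaling and without each of Empty replicate 2, SAM1 replicate 1 and SAM1 replicate 3, and *Polr2l* was at -0.25 (adjusted p = 0.113), passing with quantile normalization (-0.46, adjusted p = 0.00871) and without SAM1 replicate 2 (-0.31, adjusted p = 0.0402). In SL1, *Taf1a*, another associated factor, fell from 614.5 to 630.8 to 476.5 to 528.3 in SAM1 and 420.3 to 447.9 in SAM2 (-0.41, SE 0.0816, adjusted p = 0.0022), and *Taf12* fell by 0.17 on the log2 scale (SE 0.0405, adjusted p = 0.00637). *Tbp*, which SL1 shares with TFIID and TFIIIB, was at 0.02 (adjusted p = 0.792), a sign that turned with quantile normalization and without Empty replicate 1. Of the 6 SL1 genes measured, *Taf1b*, *Taf1d*, *Taf1a* and *Taf12* were called lower over both lines (27.0% of all genes were), and *Taf1c* and *Tbp* were not called. The call of *Taf1b* was lost without Empty replicate 2 or Empty replicate 3. No test compared this share with that of all genes.

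**Figure D3:**
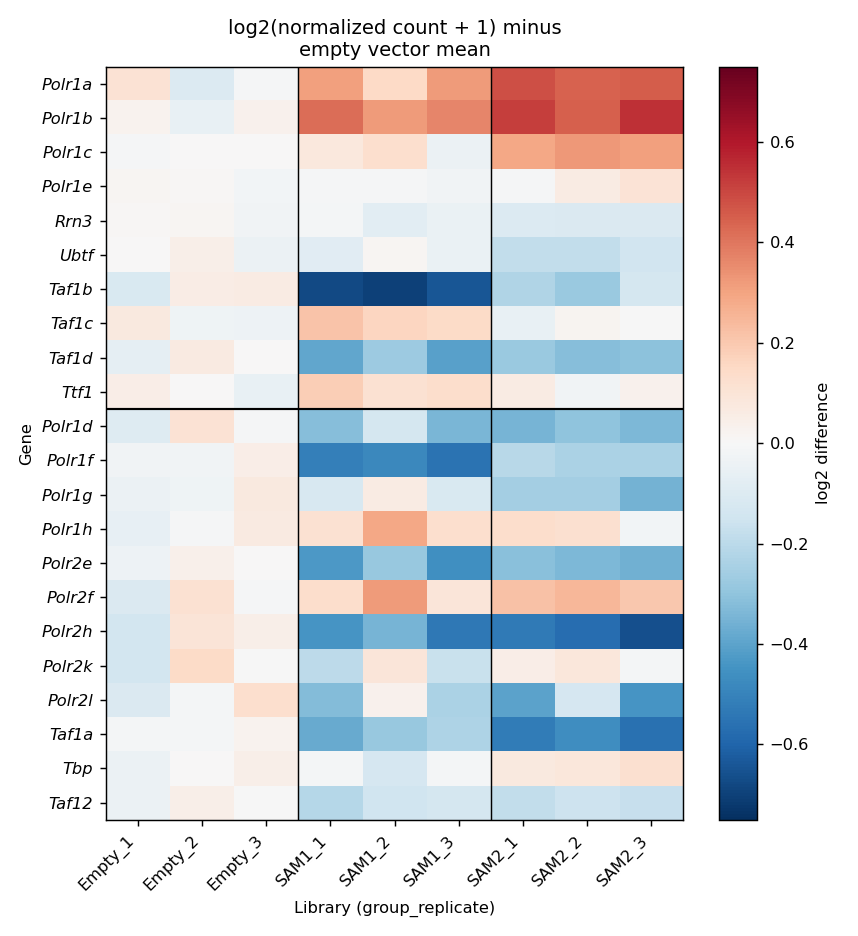
The log2(normalized count + 1) of each gene in each library minus the mean of the 3 empty vector libraries (colour, red higher and blue lower), for the 10 genes above the line and the other 12 subunits of RNA polymerase I and SL1 under it. *Polr1a* and *Polr1b* are red in the 6 SAM columns, and *Taf1b*, *Taf1d*, *Polr1d*, *Polr1f*, *Polr2e*, *Polr2h* and *Taf1a* are blue.

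Genes that assist or follow RNA polymerase I were mixed. Of 21 cofactors and early processing factors, 6 were higher (28.6%, with 26.8% of all genes) and 9 lower over both lines (42.9%, with 27.0% of all genes, median -0.112). No test compared these shares. *Tcof1*, whose protein treacle links UBF and the polymerase, rose from 3195 to 3365 in empty vector to 4625 to 4823 in SAM1 and 4976 to 5063 in SAM2 (log2 fold change 0.57, SE 0.0413). *Mybbp1a*, a nucleolar MYB-binding protein gene, rose by 0.50 (SE 0.0468), and *Nol11*, a component of the small subunit processome, fell by 0.42 on the log2 scale (SE 0.0375). These 3 were named because they had the smallest pooled adjusted p-values of the 21, so they do not stand for the list. Among 15 genes that silence ribosomal DNA, 5 were higher and 3 lower (median 0.096). The histone methyltransferase genes *Suv39h1* and *Ehmt2* rose by 0.43 and 0.29, and *Rrp8*, whose protein nucleomethylin belongs to the energy-dependent silencing complex eNoSC together with SUV39H1, fell by 0.41 on the log2 scale (adjusted p = 4.11e-05).

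The machineries of the other polymerases were measured alongside. Of the 7 subunits found in RNA polymerase II alone, 1 was higher (26.8% of all genes) and 1 lower (27.0% of all genes, median 0.015). The one above was the largest subunit gene *Polr2a*, which went from 4412 to 5506 in empty vector to 9144 to 10950 in SAM1 and 11300 to 12280 in SAM2 (log2 fold change 1.17, SE 0.0957, adjusted p = 7.81e-06), a larger value than the 0.36 of *Polr1a*. *Polr2j* fell by 0.27 on the log2 scale (adjusted p = 0.00358), and *Polr2i*, at -0.30, missed the threshold (adjusted p = 0.0512) and passed it among genes with a mean of at least 100 (adjusted p = 0.0474), with quantile normalization (-0.35, adjusted p = 0.0427), with DESeq2 on recovered reads (adjusted p = 0.0414) and without SAM1 replicate 2 (-0.37, adjusted p = 0.0109). Of 11 subunits of RNA polymerase III alone, 3 were higher (27.3%, with 26.8% of all genes) and 3 lower (27.3%, with 27.0% of all genes, median 0.091). Among them were the largest subunit gene *Polr3a* (0.38, adjusted p = 0.000226), *Polr3d* (0.73, SE 0.0536) and *Crcp* (-0.52, SE 0.0548). Its 16 initiation factors and regulators had 4 higher and 4 lower (median 0.0), led by the TFIIIC subunit genes *Gtf3c3* (-0.69, SE 0.0726) and *Gtf3c6* (0.20, SE 0.0335) and the SNAP complex gene *Snapc3* (-0.30, SE 0.0533). The genes of the largest subunits of all 3 polymerases were thus higher over both lines, and no test compared them with one another.

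**Figure D4:**
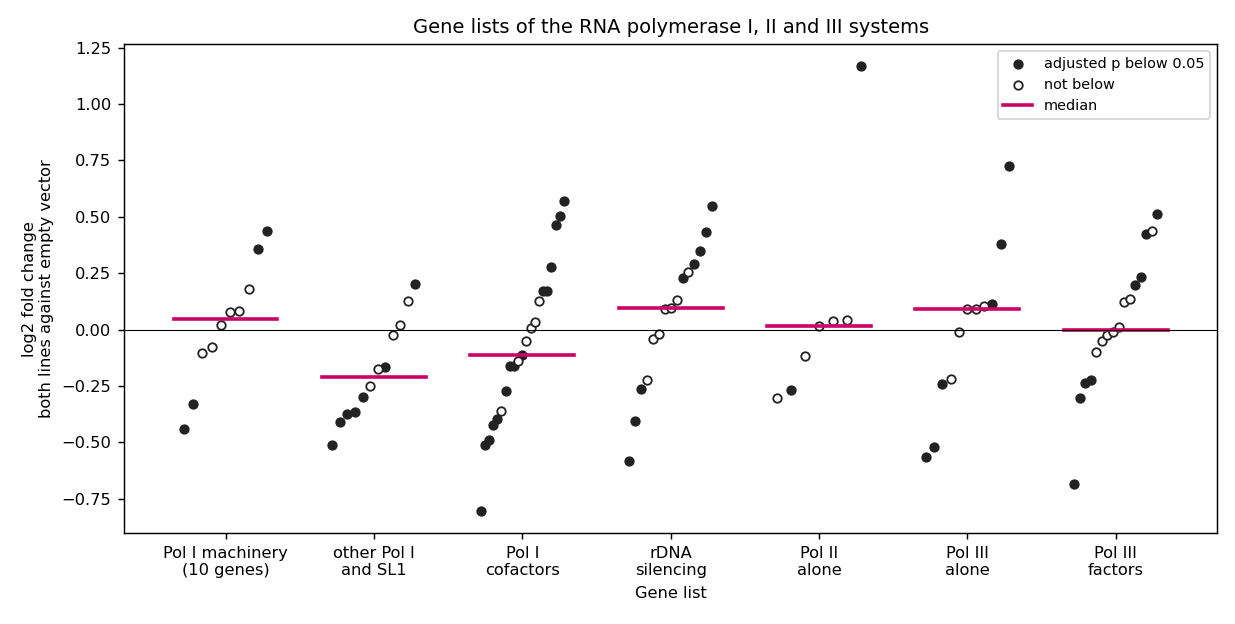
The log2 fold change of both lines against empty vector (vertical axis) for each gene of 7 lists, where filled points have an adjusted p below 0.05 and the bar is the median of the list. The 10 genes run from -0.44 to 0.44 around a median of 0.049, the other RNA polymerase I and SL1 subunits have a median of -0.212, and the highest point of all is *Polr2a* at 1.17.

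Each gene was also set beside the other listed genes of its chromosome, because chromosome medians of the pooled log2 fold change ran from -0.242 on chromosome 7 to 0.547 on chromosome 14. *Polr1a* (0.36) stood beside a median of 0.18 over 738 other genes of chromosome 6, *Polr1b* (0.44) beside 0.21 over 1145 genes of chromosome 2, *Taf1b* (-0.44) beside -0.14 over 519 genes of chromosome 12 and *Taf1d* (-0.33) beside -0.14 over 845 genes of chromosome 9. Within 5 Mb on each side, the medians were 0.13 (44 genes), 0.21 (103 genes), -0.24 (36 genes) and -0.18 (28 genes). The chromosome medians of these 4 thus had the sign of the gene and a smaller size. Over the 10 genes, 8 had the sign of their chromosome's median and 9 lay within the interquartile range of their chromosome's genes, the exception being *Taf1b*, which was above only 23.3% of them. These 2 counts were 9 and 9 in SAM1, 7 and 9 in SAM2, and 6 and 7 for SAM2 against SAM1. For the interquartile range, the share of a chromosome's genes inside it is fixed by its definition, from the lower to the upper quartile. For the sign, the share over all genes was not computed, so that count has no base rate beside it. No test compared either count with a base rate. The part of chromosome-wide shifts in the values of single genes was not tested.

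**Figure D5:**
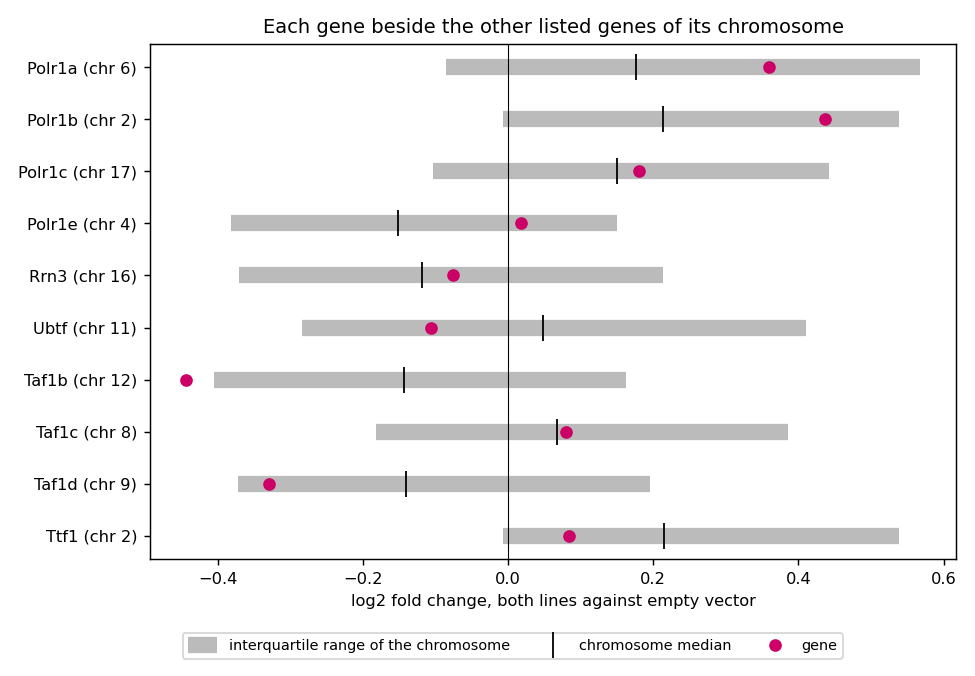
Pooled log2 fold change (horizontal axis) of each of the 10 genes (point) beside the other listed genes of the same chromosome, given as their median (tick) and interquartile range (grey bar). *Taf1b*, at -0.44, is the only point outside its bar, and the points of *Polr1e* and *Ubtf* lie across 0 from their chromosome's median.

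The genes with the most similar pattern over the 9 libraries were found for the 3 genes of largest pooled change, as the distance between log2 values centred on the empty vector mean. For *Taf1b* they were *Eps15* (distance 0.162), *Asic1* (0.165) and *Slc30a9* (0.172), with 696 genes within a distance of 0.5. For *Polr1b* they were *Xpnpep3* (0.092), *Nup160* (0.093) and *Samd8* (0.111), with 1025 genes within 0.5, and for *Polr1a* they were *Fam210a* (0.093), *Arid1b* (0.102) and *Tanc1* (0.102), with 1100. Patterns like these were common in the table, and none of the 9 nearest genes belongs to the RNA polymerase I machinery or to the lists compared with it.

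The counts of 8 of the 10 genes could gain or lose reads through a neighbour on the other strand. The library kit marks strand, but the strand setting of the counting and its treatment of shared reads are not given in the sources used here. The overlaps were taken from GENCODE vM39, while the reads were counted on Gencode vM29. Exon bases were shared with *Dnaaf1* by *Taf1c* (610), with *Gm75703* by *Polr1b* (447), with *Gm59397* by *Taf1b* (290), with *4931406C07Rik* and *Cep295* by *Taf1d* (235 and 85), with *Gm26628* and *Gm68334* by *Polr1a* (233 and 90), with *Yipf3* by *Polr1c* (128), with *Gm60505* by *Rrn3* (117) and with *Fbxo10* by *Polr1e* (36). *Ubtf* and *Ttf1* shared none.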

How the data were processed

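PolyA+ RNA of MEFs was sequenced in 9 paired-end libraries made with a directional kit. The authors checked reads with FastQC v0.11.0, aligned them to GRCm39 with TopHat2, Bowtie2 and SAMtools, counted them on Gencode vM29 with HTSeq, and normalized them with DESeq2. The deposited values are the signal used here, gene counts divided by size factors, for genes above 10 in at least 30% of samples. In each library 100% of values were whole multiples of 1 step (tolerance 0.01 read), which gave the reads and depths printed. In SAM2 replicate 1 the step of 0.989 lay close to 1, so recovery is less certain there. The table holds no columns of comparisons.

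Across all 15184 genes, limma 3.58.1 (R 4.3.3; trended variance, Benjamini-Hochberg adjustment, threshold 0.05) was run on log2(normalized count + 1), with the 6 SAM libraries against the 3 empty vector libraries as in the study, and with 3 groups for each line and for the lines against each other. A fold change on this scale understates the change of low genes. Intervals cover the spread between libraries, which over both lines includes the difference between the lines. The scripts were tested on simulated data. In 19 alternatives, the pseudocount, filter, scaling, replicate block, variance trend and test (edgeR 4.0.16 and DESeq2 1.42.0 on the recovered reads) were changed or 1 library was left out.

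Named were the 10 genes, the other RNA polymerase I and SL1 subunits, up to 3 genes of smallest pooled adjusted p per further list, *Hnrnpk*, and the 3 nearest patterns of the 3 genes of largest pooled change. The 10 genes and all lists were chosen with earlier results of these data known. Positions, lengths and promoters came from GENCODE vM39 on GRCm39, which held 14791 gene names of the table as a single gene, 68 as several and lacked 325. *Polr1g* was listed as *Cd3eap*.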

Additional observations from a re-analysis of the deposited data

Results flagged for a closer look

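Of the 10 genes, 7 are given here because the effect differed between the lines by a direct test of SAM2 against SAM1 (limma with Benjamini-Hochberg adjustment, over all genes), and 60.3% of all genes did so. The log2 difference, SAM2 minus SAM1, was 0.20 for *Polr1a*, 0.14 for *Polr1b*, 0.26 for *Polr1c* and 0.46 for *Taf1b*. It was -0.13 for *Ubtf*, -0.18 for *Taf1c* and -0.12 for *Ttf1*. With 3 libraries in each group, the test for a single outlying value was not run on any group.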

How the results depend on the processing

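Of 760 recomputed values of the 10 genes over 19 alternatives, 721 kept their direction and their side of the threshold, 14 lost the call, 11 gained it and 14 changed sign. Of 570 values of the other named genes the numbers were 554, 2, 8 and 6. The count of the 10 genes called stayed within 1.5 times in every alternative run. Leaving out 1 library gave 3 to 5 calls over both lines, 5 to 7 in SAM1, 7 in SAM2 and 5 to 8 between the lines, from 4, 6, 7 and 7.

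Signs turned under another scaling, mostly in values near 0 that were not called. With quantile normalization the values were -0.037 (*Polr1e*), 0.013 (*Rrn3*) and -0.0 (*Tbp*) over both lines, 0.076 (*Ubtf*) and 0.068 (*Rrn3*) in SAM1, -0.021 (*Polr1e*) and -0.039 (*Ttf1*) in SAM2, and -0.001 (*Taf1d*) between the lines. With upper-quartile scaling they were 0.007 (*Polr2k*) over both lines, 0.043 (*Polr1e*), 0.019 (*Ubtf*) and 0.011 (*Rrn3*) in SAM1, and -0.002 (*Taf1d*) between the lines. Leaving out 1 library, values ran from -0.032 to 0.023 (*Taf1c*) and from -0.002 to 0.05 (*Ttf1*) in SAM2, and from -0.095 to 0.047 (*Polr2k*) and from -0.003 to 0.05 (*Tbp*) over both lines. The median of the 10 genes moved to 0.09 (quantile) and 0.08 (upper quartile) in SAM1, to -0.04 (quantile) in SAM2, and to 0.02 (quantile) and 0.005 (upper quartile) between the lines. At the same settings the median of all genes was -0.047 and 0.068 in SAM1, -0.034 in SAM2, and 0.013 and -0.061 between the lines. The cause of these changes was not tested.

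Replicate numbers are shared by the groups, and the labels do not say whether they pair the libraries. Deviations from the group means had a mean correlation of 0.0531 over the 9 pairs of one number (0.0024 to 0.1171). Over the 18 pairs of different numbers the mean was -0.0265 (-0.1222 to 0.046). Whether libraries of one number were handled together was not tested. With the replicate block, 3 of the 10 genes were called over both lines, since *Taf1b* missed the threshold (-0.44, adjusted p = 0.0566 from limma), and 6, 7 and 7 in SAM1, in SAM2 and between the lines, while the genes of the table called went from 8179 to 7343 over both lines, from 11275 to 11631 in SAM1, from 10699 to 11095 in SAM2 and from 9162 to 9812 between the lines. Depth limits the low genes most, since the fewest reads behind a value of the 10 genes were 410.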
